A study of Mus musculus with 18 samples.

Results

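The Adamts, Adamtsl, Mmp and Timp genes encode the secreted and membrane-bound metalloproteinases that cut the extracellular matrix, their non-catalytic relatives and their inhibitors. They were taken from the count table by symbol alone: Adamts, Adamtsl or Mmp followed by a number (with a letter allowed for Mmp), and Timp followed by a number from 1 to 4. This gave 51 of the 23337 symbols in the table, of which 19 were Adamts, 5 Adamtsl, 23 Mmp and 4 Timp genes. A filter on low counts kept 44 of the 51 for testing, among 15482 genes tested in all. The 7 members below it were Mmp1a, Mmp1b, Mmp7, Mmp10, Mmp20, Mmp21 and Mmp24.

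RNA was sequenced in 18 libraries from mammary gland tissue, with the lymph nodes left out, of C57BL/6Jx129 mice that were WT or Cip2a-/-. CIP2A, the protein missing in the latter, inhibits the phosphatase PP2A. Untreated glands came from mice that received no agent. The treated mice received DMBA, a polycyclic aromatic carcinogen that must be activated in the body, by gavage in oil: 1 mg a dose, 1 dose a week and 6 doses in all from the age of 12 to 14 weeks. Glands called 2-week here were taken 2 weeks after the last dose. Endpoint glands were tumour-free glands from DMBA-treated mice sacrificed because of tumours in any tissue. Each genotype had 3 libraries in each of these 3 conditions, so each of the 6 groups had 3. No oil-only group was among the samples analysed here, and the age at the endpoint was not given in the sources used here, so DMBA, gavage, age and tumour burden elsewhere in the mouse cannot be told apart.

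ADAMTS proteases are secreted zinc enzymes with thrombospondin repeats that bind them to the matrix. Some cut the large proteoglycans aggrecan and versican, some trim procollagens, and the ADAMTS-like proteins keep the repeats without the catalytic domain. Matrix metalloproteinases (MMPs) are made as inactive precursors and include collagenases, gelatinases, stromelysins and membrane-anchored enzymes. The TIMP proteins bind and block the active site of MMPs, and TIMP3 also blocks several ADAMTS enzymes. In the mammary gland this system takes part in ductal branching and in the loss of the alveoli after weaning, and stromal cells make much of it.

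Total counts ranged from 16121743 to 24586404 reads per library. The Cip2a transcript lay between 0.831 and 4.88 CPM (the count scaled to the library's total) in the WT libraries and between 0 and 0.0598 CPM in the Cip2a-/- libraries, so it followed the genotype labels. WT endpoint library 1 stood apart in its tissue markers: the epithelial gene Epcam was at its lowest there, at 4.37 CPM, and the brown fat gene Ucp1 at its highest, at 5835 CPM. Its mean log2 levels of lymph node stroma and B cell markers were also the highest of all libraries. Summed lymph node stroma markers ran from 1.23 to 723 CPM over the libraries, B cell markers from 1.44 to 2187 and skeletal muscle markers from 16.9 to 59210. Whether lymph node or muscle tissue was carried over was not tested. The column headers hold a number for each library whose meaning was not given in the sources used here: 5144 to 5185 for the 2-week libraries, 3996 to 4087 for the endpoint libraries and 3925 to 5023 for the untreated ones. Whatever these numbers mark cannot be told apart from the 2-week condition. The labels do not say whether animals shared litters or cages, and p-values measure only the spread between these libraries.

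Levels were compared between genes as CPM per kb of exon, averaged over all 18 libraries. The inhibitor Timp2 and the gelatinase Mmp2, which cuts denatured and basement membrane collagen, stood at the top with 109 ± 45.04 and 94.7 ± 47.01 CPM per kb (SD, n = 18). Timp2 was above Mmp2 in 12 of 18 libraries, so these neighbours did not separate. The inhibitor Timp3 followed at 67.0 ± 31.3 and was above Timp4 (34.3 ± 20.3) in 18 of 18 libraries. Timp1, the remaining inhibitor, was far lower at 5.68 ± 3.71.

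Below the inhibitors, the highest member of each functional group was named. Mmp3 led the stromelysins, which cut proteoglycans and activate other MMPs, at 30.1 ± 14.5 CPM per kb. Mmp14, the membrane-anchored enzyme that activates MMP2 at the cell surface, stood next to it at 29.4 ± 12.7, and Mmp3 was the higher of this pair in 10 of 18 libraries. Mmp19 led the remaining MMPs at 18.8 ± 5.26 CPM per kb.

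Among the ADAMTS genes the highest was Adamts5, an aggrecan- and versican-cutting enzyme, at 14.4 ± 10.3 CPM per kb, and it was above Adamts10, a protease of the fibrillin microfibrils, at 13.8 ± 3.64, in only 8 of 18 libraries. Adamtsl4 led the ADAMTS-like genes at 10.9 ± 4.36. Adamts2, which removes the N-propeptide of fibrillar procollagens, led its group at 9.20 ± 3.61. Adamts7, which cuts cartilage oligomeric matrix protein (COMP), stood at 2.76 ± 1.21, and Adamts13, the protease of von Willebrand factor, at 0.104 ± 0.159.

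In all, 13 members averaged 10 CPM per kb or more, 15 lay from 1 to under 10, and 20 were above 0 but under 1. The interstitial collagenase genes Mmp1a and Mmp1b and the enamel protease gene Mmp20 had 0 reads in all 18 libraries. Counting 3 reads as the limit that a count of 0 allows, each could have been present at up to 0.116 to 0.206 CPM in a library. Mmp8 had the highest mean of the collagenases, 0.189 ± 0.376 CPM per kb, but this rested on Cip2a-/- endpoint library 3: without it Mmp8 stood at 0.107 and Mmp13 at 0.167. The matrilysin Mmp7 had 37 reads in all, 20 of them in WT endpoint library 2 and 10 in Cip2a-/- endpoint library 3. Such limits cover counting error only.

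**Figure D1:**
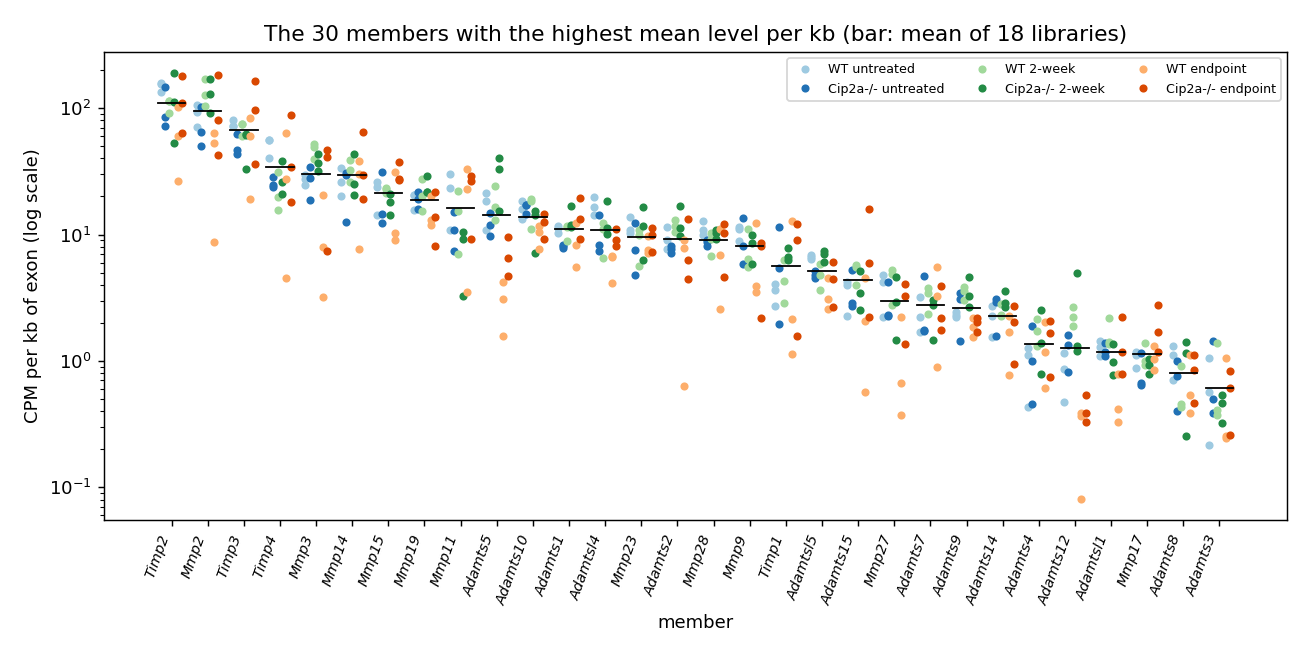
CPM per kb of exon (log scale) of the 30 members with the highest mean, 1 point per library coloured by group and a bar at the mean of 18 libraries. Timp2, Mmp2 and Timp3 stand highest, and the points of Adamts5 spread further than those of its neighbour Adamts10.

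The summed level of the 4 inhibitors was set against that of the 42 Adamts and Mmp genes in each library, without the ADAMTS-like genes, as a description with no test. The ratio of the sums ran from 0.600 to 1.14 with a median of 0.779 in untreated glands, from 0.394 to 0.641 with a median of 0.548 at 2 weeks, and from 0.582 to 1.18 with a median of 0.788 at the endpoint. The ranges overlapped, and the summed protease level ran from 292 to 463 CPM per kb at 2 weeks and from 86.4 to 471 at the endpoint.

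**Figure D2:**
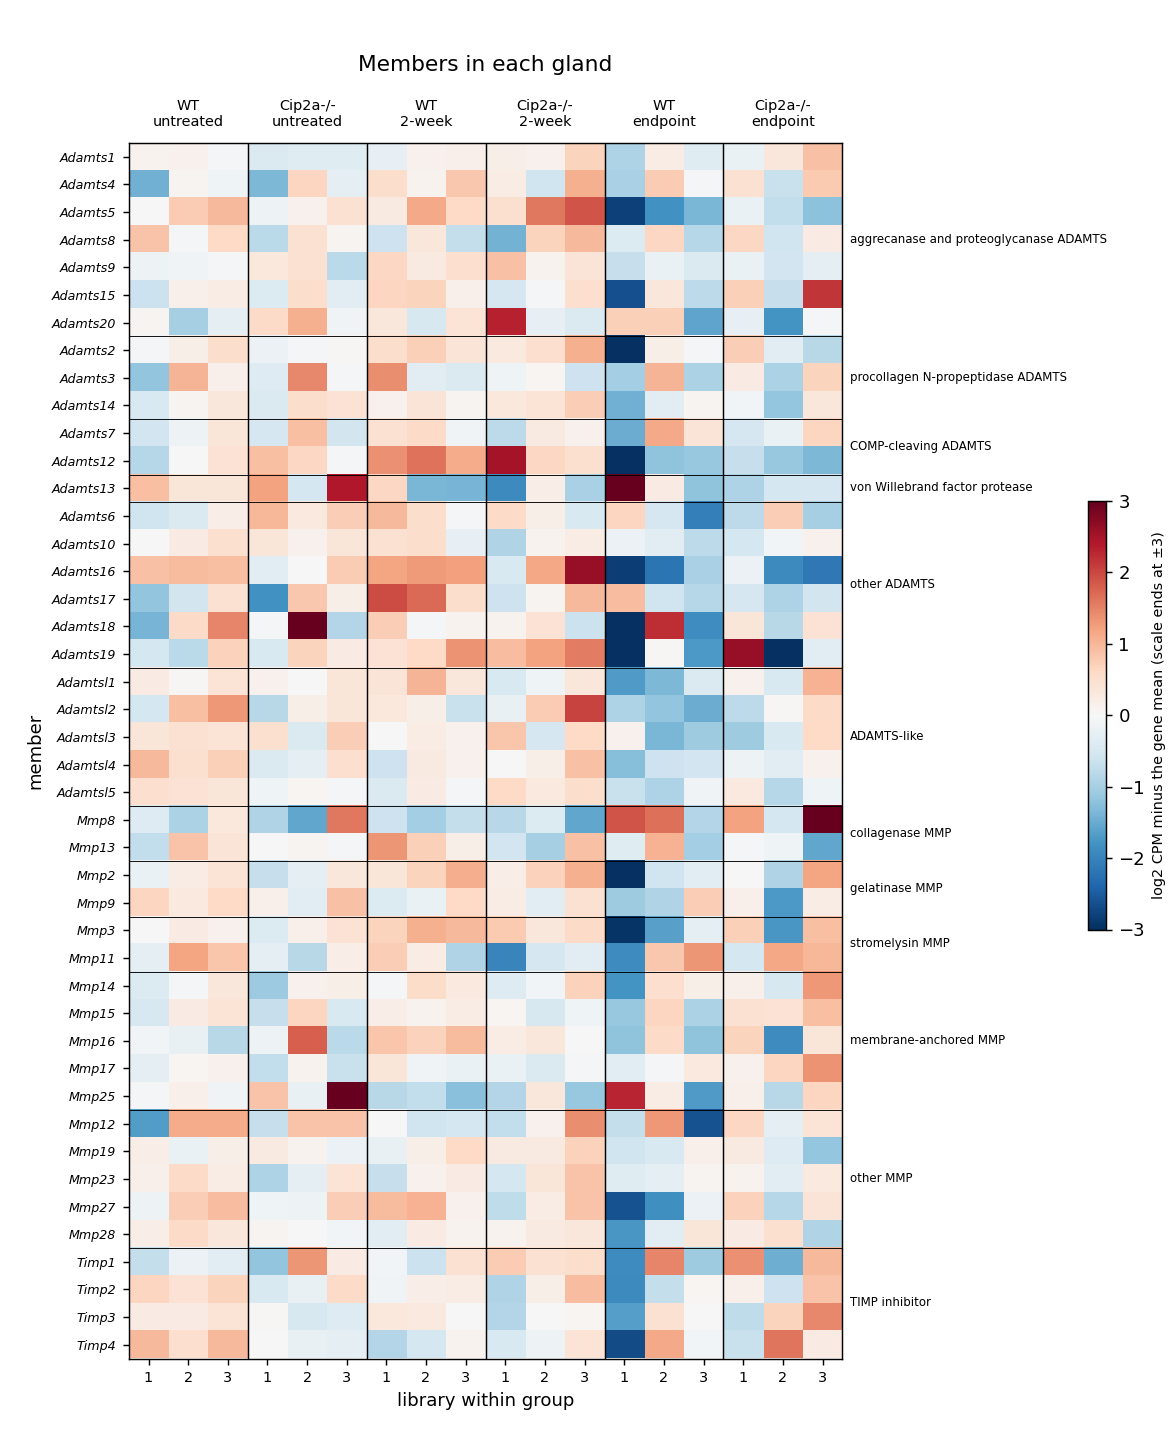
Log2 CPM of the 44 tested members, centred on each gene's mean over the 18 libraries, with members in rows by functional group and libraries in columns by group. Adamts5, Adamts12 and Adamts16 are blue in nearly every endpoint column, and WT endpoint library 1 is the lowest column for many members, among them Adamts2, Mmp2 and all 4 Timp genes.

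The comparison of the endpoint with 2 weeks after DMBA held most of the calls. Averaged over the genotypes, 4 members fell and 1 rose. Adamts16, the proteoglycan-cutting Adamts5 and Adamts9, and the COMP-cutting Adamts12 were lower at the endpoint, and the neutrophil collagenase Mmp8 was higher. A call means a Benjamini-Hochberg adjusted p under 0.05 in edgeR's quasi-likelihood test over all genes. The 5 called members were 11.4% of the 44 tested, and 13.4% of all 15482 genes were called in this comparison, so the members' share was near the background. By direction, 9.09% of members and 6.94% of all genes were lower, and 2.27% of members and 6.41% of all genes were higher. The median log2 fold change was -0.37 over the members, 30 of which were negative, and 0.05 over all genes.

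Adamts5 (Entrez 23794, chromosome 16, 85858157 to 85901125, GRCm38) is one of the main aggrecanases. In untreated glands it was at 117, 198 and 229 CPM in WT and at 106, 129 and 161 CPM in Cip2a-/-. At 2 weeks the libraries held 141, 259 and 177 CPM in WT and 165, 354 and 436 CPM in Cip2a-/-. At the endpoint they held 16.9, 33.2 and 45.4 CPM in WT and 102, 70.6 and 50.3 CPM in Cip2a-/-. All 6 endpoint libraries were below all 12 others, and the WT endpoint libraries were below the Cip2a-/- ones. The level at the endpoint was 5.09-fold below that at 2 weeks (log2 fold change -2.35 ± 0.31 SE, edgeR adjusted p = 0.00221).

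Adamts12 (Entrez 239337, chromosome 15, 11064773 to 11349232), which cuts COMP, was at 5.16, 9.49 and 12.7 CPM in untreated WT and at 17.5, 14.5 and 8.98 CPM in untreated Cip2a-/- glands. At 2 weeks it was at 24.3, 29.3 and 20.6 CPM in WT and at 53.8, 14.4 and 13.1 CPM in Cip2a-/-. At the endpoint it was at 0.887, 4.03 and 4.23 CPM in WT and at 5.82, 4.25 and 3.60 CPM in Cip2a-/-. Every endpoint library was below every 2-week library, while the highest endpoint library lay above the lowest untreated one. The fall from 2 weeks was 6.92-fold (log2 fold change -2.79 ± 0.44, edgeR adjusted p = 0.00412).

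Adamts16 (Entrez 271127, chromosome 13, 70727798 to 70841845), known from the kidney and gonads, was a gene of low counts here. It was at 2.08, 2.18 and 2.10 CPM in untreated WT and at 0.837, 1.10 and 1.91 CPM in untreated Cip2a-/- glands, and 2-week glands held 2.60, 2.79 and 2.69 CPM in WT and 0.754, 2.54 and 7.14 CPM in Cip2a-/-. Endpoint glands held 0.0634, 0.155 and 0.506 CPM in WT and 0.953, 0.215 and 0.166 CPM in Cip2a-/-, from 39 reads over the 6 libraries. The highest endpoint library overlapped the lowest 2-week library, both of them Cip2a-/-. The fall was 9.25-fold (log2 fold change -3.21 ± 0.59, edgeR adjusted p = 0.00784).

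Adamts9 (Entrez 101401, chromosome 6, 92772699 to 92944450), an enzyme that cuts versican, moved less. Untreated glands held 33.7, 34.8 and 36.8 CPM in WT and 46.9, 52.1 and 21.5 CPM in Cip2a-/-. The 2-week libraries were at 58.2, 45.9 and 53.8 CPM in WT and at 69.2, 40.5 and 49.0 CPM in Cip2a-/-, and the endpoint libraries at 23.3, 32.9 and 27.8 CPM and at 32.9, 25.4 and 30.7 CPM. The 2-week and endpoint libraries did not overlap, as for Adamts5 and Adamts12, and 3.49% of all genes were lower without overlap. The fall was 1.83-fold (log2 fold change -0.87 ± 0.19, edgeR adjusted p = 0.0133), and it was -0.53 with an adjusted p of 0.0637 in a fit that removed the trend of expression on exon length, which for all genes sloped by -0.15 log2 units per doubling of length in this comparison. Adamts9 has 15048 bases of exon.

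Mmp8 (Entrez 17394, chromosome 9, 7558429 to 7568486), the collagenase of neutrophils, rested on few reads: 24 in the untreated, 9 in the 2-week and 123 in the endpoint libraries. Untreated glands held 0.130, 0.0558 and 0.277 CPM in WT and 0.0598, 0 and 0.811 CPM in Cip2a-/-. It was at 0.0963, 0.0465 and 0.0841 CPM in WT and at 0.0685, 0.127 and 0 CPM in Cip2a-/- at 2 weeks. At the endpoint it was at 1.01, 0.851 and 0.0632 CPM in WT and at 0.602, 0.108 and 3.87 CPM in Cip2a-/-. WT endpoint library 3 and Cip2a-/- endpoint library 2 lay within the 2-week range, and Cip2a-/- endpoint library 3 was the highest of all. The rise was 12.97-fold (log2 fold change 3.70 ± 1.05, edgeR adjusted p = 0.0335). Without Cip2a-/- endpoint library 3 it was 2.66 with an adjusted p of 0.108, and leaving out any 1 of the 6 2-week libraries also lost the call, with adjusted p from 0.0505 to 0.0827. It was lost as well with limma voom (adjusted p = 0.111), on the groups compared only (0.059), within WT (2.99, 0.238) and within Cip2a-/- (4.40, 0.123), so in 11 of 21 alternatives.

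**Figure D3:**
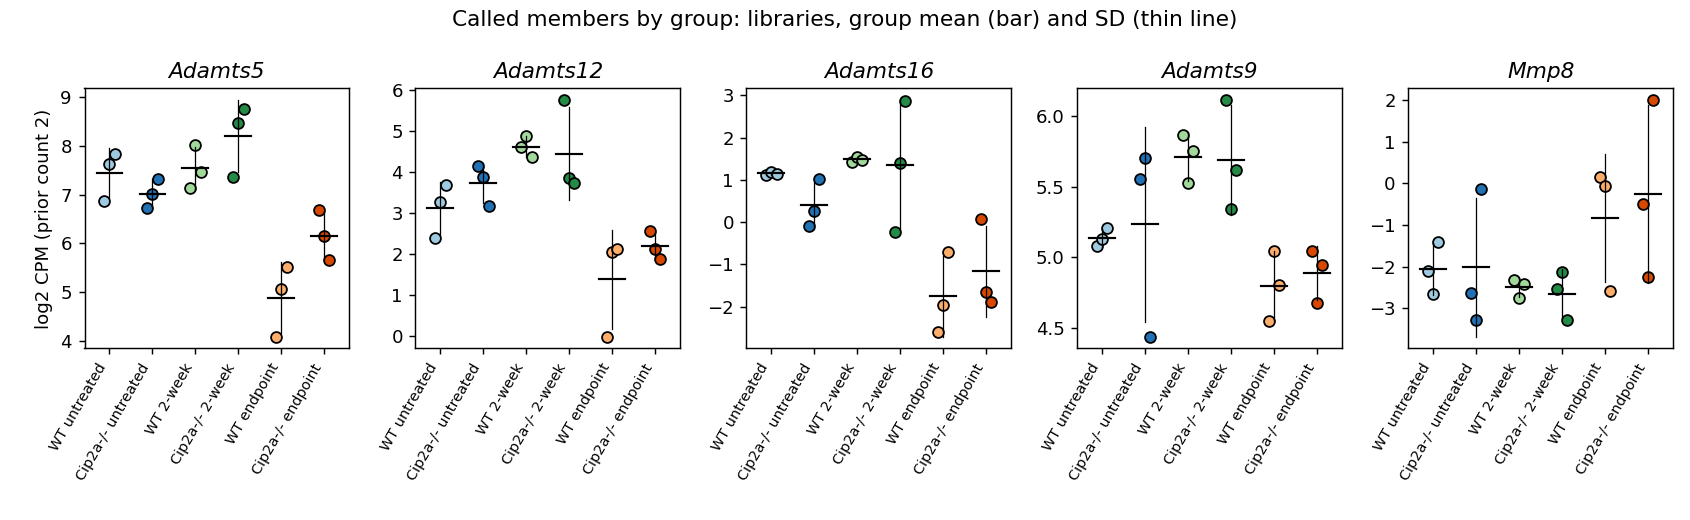
Log2 CPM of the 5 called members in the 6 groups, with 1 point per library, a bar at the group mean and a thin line for its SD (n = 3). The endpoint libraries of Adamts5 lie under all others, and those of Mmp8 spread from the 2-week range to well above it.

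The promoter stretches of called members show what sequence lies at the start given for them in RefSeq's promoter table. RefSeq (GRCm38.p6) promoter windows, 300 bases each, were matched for 36 of the 51 members by Entrez identifier. The 15 without an entry were Adamts4, Adamts5, Adamts6, Adamts7, Adamts8, Adamts10, Adamts15, Adamts16, Adamts19, Adamtsl1, Mmp2, Mmp9, Mmp16, Mmp17 and Mmp19. Printed 5′ to 3′ are the 120 bases before the start and the 20 from it, for Adamts9 (chr6:92943515-92943654, minus strand) and Adamts12 (chr15:11064653-11064792, plus strand). The start used for Adamts9 lies 916 bases inside the outer boundary of the gene given above, while that of Adamts12 lies on it. Capitals mark a GC box, searched as GGGCGG and its reverse complement CCGCCC.
Adamts9: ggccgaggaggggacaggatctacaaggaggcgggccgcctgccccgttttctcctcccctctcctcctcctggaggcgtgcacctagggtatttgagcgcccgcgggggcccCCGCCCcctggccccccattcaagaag
Adamts12: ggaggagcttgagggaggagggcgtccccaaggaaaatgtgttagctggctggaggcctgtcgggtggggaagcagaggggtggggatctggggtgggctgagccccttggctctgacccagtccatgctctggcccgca

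The GC box stood in the Adamts9 stretch, 7 to 2 bases before the start, and in neither orientation in the Adamts12 window. It was in 22 of the 36 member windows (61.1%) and in 38.2% of the windows of all 27025 genes. A match describes the letters and not a bound site.

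Within each genotype the falls kept their direction with fewer calls. Within WT, Adamts5 was the only member called (log2 fold change -2.60 ± 0.44, edgeR adjusted p = 0.0398), where 0.31% of all genes were called. Within Cip2a-/- no gene was called, and Adamts5 stood at -2.10 ± 0.43 with an adjusted p of 0.0586. For Adamts12 the values were -3.01 ± 0.62 in WT and -2.57 ± 0.61 in Cip2a-/-, and for Adamts16 they were -3.47 ± 0.86 and -2.95 ± 0.82.

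By function, 2 of 7 proteoglycan-cutting ADAMTS genes, 1 of 2 COMP-cutting genes, 1 of 6 remaining ADAMTS genes and 1 of 2 tested collagenases were called between 2 weeks and the endpoint. None of the 3 procollagen N-propeptidases, the 5 ADAMTS-like genes, the 2 gelatinases, the 2 tested stromelysins, the 5 tested membrane-anchored MMPs, the 5 tested remaining MMPs or the 4 inhibitors was. All 5 ADAMTS-like genes had negative values, with a median of -0.64, and their smallest adjusted p was 0.0607, for Adamtsl5. Several ADAMTS-like proteins bind fibrillin microfibrils, and none cuts protein.

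Mmp2 was at 308 to 572 CPM at 2 weeks, with a median of 431, and at 29.3 to 612 CPM at the endpoint, with a median of 197. Its log2 fold change was -1.01 ± 0.42 (edgeR adjusted p = 0.121), and Cip2a-/- endpoint library 3 was the highest of all 18 while WT endpoint library 1 was the lowest. Mmp3 was at 57.2 to 94.5 CPM at 2 weeks and at 5.77, 14.4 and 37.0 CPM in WT and 73.8, 13.2 and 84.1 CPM in Cip2a-/- endpoint glands. It stood at -1.19 ± 0.42 with an adjusted p of 0.072, with 4 endpoint libraries under the whole 2-week range and 2 within it.

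The 4 inhibitors did not pass the test in any of the 13 comparisons. Between 2 weeks and the endpoint Timp1 was at 0.20 ± 0.58, Timp2 at -0.38 ± 0.35, Timp3 at 0.27 ± 0.35 and Timp4 at 0.62 ± 0.48. The endpoint libraries of Timp3 ran from 157 to 1341 CPM, with a median of 582, and took in the whole 2-week range of 270.3 to 615. Those of Timp4 ran from 26.5 to 519 CPM with a median of 181 and took in its 2-week range of 92.9 to 225. The intervals are wide enough that these values do not show the inhibitors to be alike at both times.

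**Figure D4:**
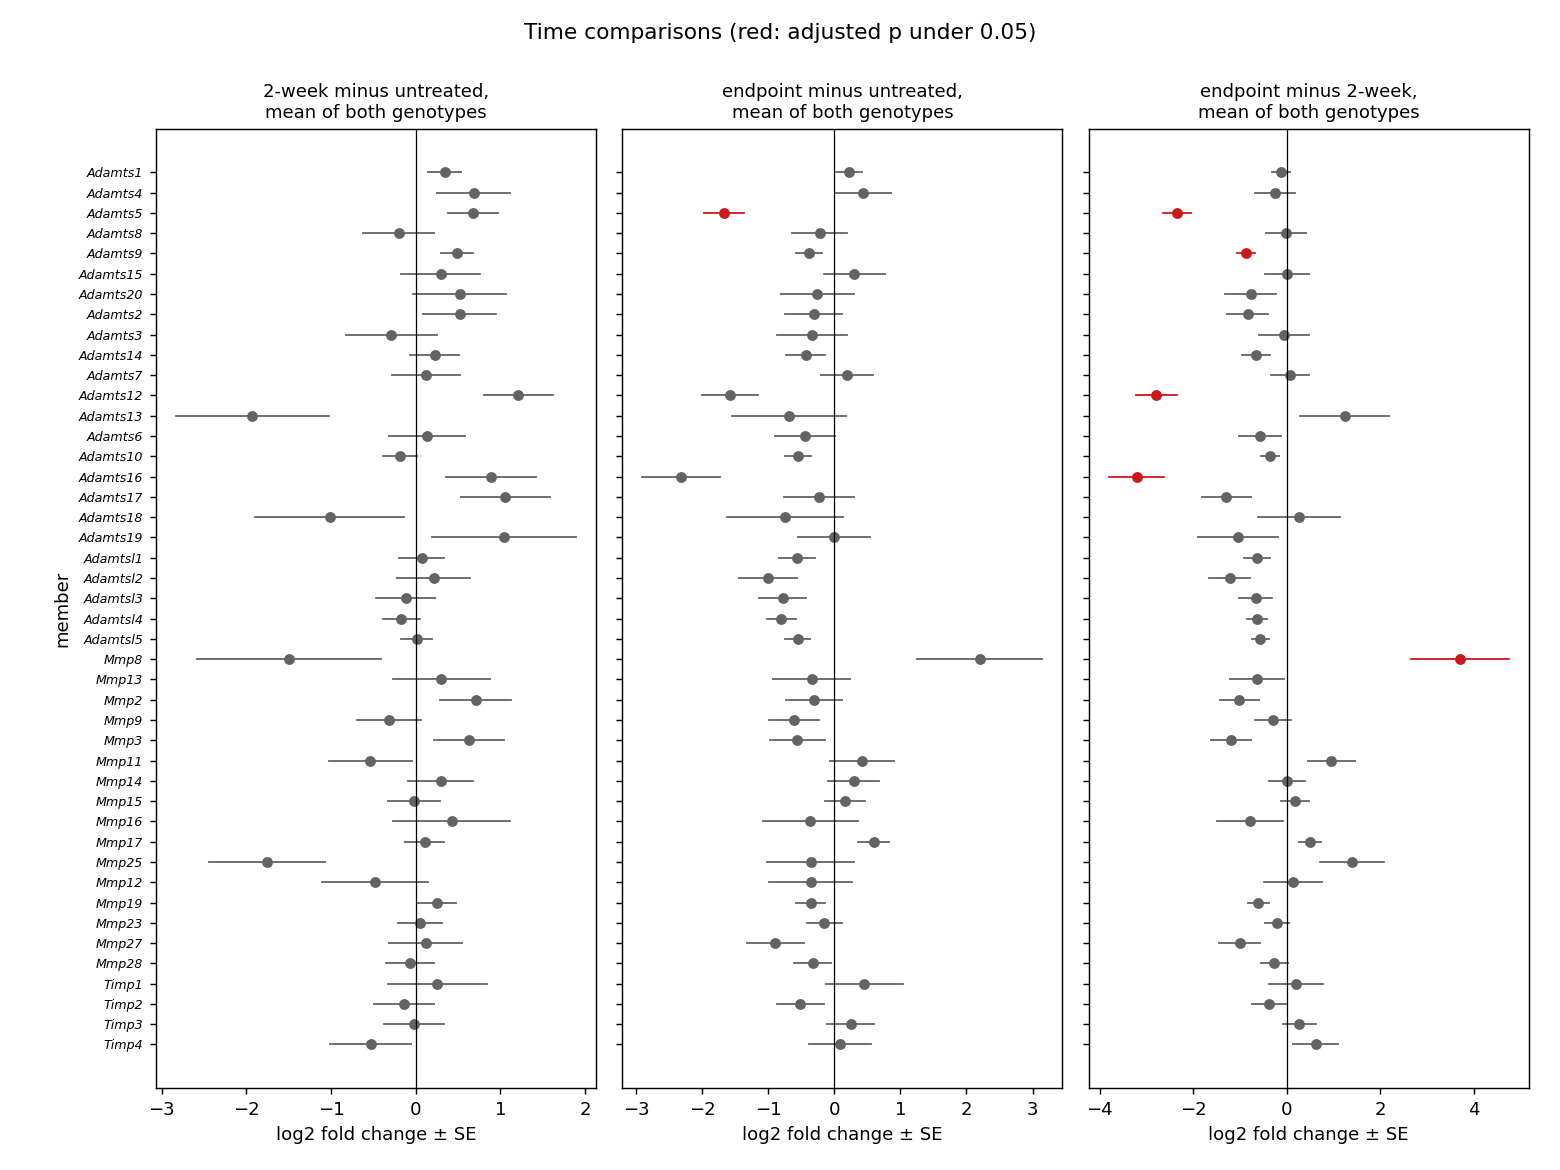
Log2 fold change ± SE of the 44 tested members for 2-week minus untreated, endpoint minus untreated and endpoint minus 2-week, each averaged over the genotypes, with called members in red. The first panel has 0 called members, the second 1 (Adamts5) and the third 5.

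Measured cell type markers also differed between 2 weeks and the endpoint. In bulk tissue, fewer cells of a type and less RNA per cell cannot be told apart. Of 11 fibroblast markers, 6 were called lower at the endpoint than at 2 weeks and all 11 were negative, with a median log2 fold change of -1.49. Their summed level ran from 2921 to 7208 CPM in untreated, 5216 to 12840 in 2-week and 762.5 to 4218 in endpoint glands, and none of them was at 0 in any library. Of 8 pericyte and smooth muscle markers, 6 were negative and 1 was called lower, with a median of -0.41. The score of a list is its mean centred log2 CPM. For this list it ran from -0.02 to 0.59 at 2 weeks and from -0.55 to -0.11 at the endpoint, without overlap. The fibroblast scores, -0.13 to 1.34 and -2.02 to 0.04, overlapped. In the correlations given below, Adamts12 and Adamts9 had no marker list that passed both the threshold and the sign criterion. Both were highest in Cip2a-/- 2-week library 1. That library had the lowest 2-week fibroblast score, -0.13. Its pericyte and smooth muscle score (0.59) and skeletal muscle score (6.25) were the highest of all libraries. The part of these cell types in the falls of Adamts5, Adamts12, Adamts16 and Adamts9 was not tested.

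Of 10 neutrophil markers, 7 were called higher at the endpoint, with a median log2 fold change of 3.99. Their summed level ran from 36.4 to 173 CPM in untreated, 63.5 to 216 in 2-week and 81.9 to 657 in endpoint glands. Ngp, Camp, Retnlg and Mpo were at 0 in 1 to 5 libraries. At 2 weeks Ltf alone ran from 50.24 to 204.9 CPM, and each other marker of the list stayed at or below 11.85 CPM. At the endpoint Ltf reached 301.6 CPM and the next highest marker, S100a9, 156.1 CPM. The 2-week sums are thus mostly the level of Ltf and do not measure the list as a whole. Cip2a-/- endpoint library 3, the highest for Mmp8, was also the highest for this list, and the gene with most reads in it was the globin gene Beta-s. The part of neutrophils and blood in the rise of Mmp8 was not tested.

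Against untreated glands, only Adamts5 was called at the endpoint. It was 3.18-fold lower, averaged over the genotypes (log2 fold change -1.67 ± 0.30, edgeR adjusted p = 0.0338), in a comparison with 0.252% of all genes called and 0.226% called lower. Its 6 endpoint libraries lay below all 6 untreated ones, the highest at 102 and the lowest untreated one at 106 CPM, and 0.898% of all genes were lower without overlap in the same way. The call was lost on leaving out any 1 of 8 libraries, WT untreated 2 and 3, Cip2a-/- untreated 1, 2 and 3, WT endpoint 2 and Cip2a-/- endpoint 2 and 3, with adjusted p from 0.052 to 0.115. It was also lost in a fit on the groups compared only (adjusted p = 0.129) and in the fit with the length trend removed (-1.51, adjusted p = 0.0858). Without WT endpoint library 1, which stood apart, it held at -1.52 with an adjusted p of 0.0335. All 11 fibroblast markers were negative in this comparison too, with a median of -1.08 and 0 called. Of 8 pericyte and smooth muscle markers, 6 were negative and 1 was called lower, the only call among the cell type markers. The part of these cell types was not tested.

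The next members were Adamts16 at -2.32 ± 0.58 (edgeR adjusted p = 0.0977) and Adamts12 at -1.58 ± 0.42 (adjusted p = 0.106). The members' median was -0.35, with 32 of 44 negative, and that of all genes was 0.02. In WT alone the members' median was -0.49 with 33 of 44 negative, and in Cip2a-/- alone it was -0.03 with 23 of 44 negative. No member was called within WT, where 0.0323% of genes were, or within Cip2a-/-, where 0 genes were. At an unadjusted p under 0.05 there were 11 members within WT and 3 within Cip2a-/-, beside 12% and 14.6% of all genes. DESeq2 called 4 members within WT and 1, Mmp17, within Cip2a-/-, beside 308 and 273 of all genes. The endpoint comparisons with untreated and with 2-week glands share the endpoint libraries.

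At 2 weeks against untreated glands no member was called. In the average over genotypes 0.0258% of all genes were called, and an unadjusted p under 0.05 was found for 5 members (11.4%) beside 6.57% of the genes tested. The smallest p-values belonged to Adamts12 at 1.21 ± 0.41 (edgeR adjusted p = 0.678), the membrane-anchored Mmp25 at -1.76 ± 0.69 (adjusted p = 0.719) and Adamts9 at 0.49 ± 0.19 (adjusted p = 0.719). For Adamts12 the untreated range of 5.16 to 17.5 CPM overlapped the 2-week range of 13.1 to 53.8 CPM. For Mmp25, an MMP of leukocytes, the untreated range was 0.715 to 7.76 CPM and the 2-week range 0.295 to 1.10 CPM, with the highest value in Cip2a-/- untreated library 3, without which the difference was -0.99. Without Cip2a-/- 2-week library 1 that of Adamts12 was 0.73. The members' median was 0.12, with 27 of 44 positive. Within WT, 0 genes were called and within Cip2a-/- 0.0129%, none of them members in either. At an unadjusted p under 0.05 there were 4 members within WT (4.23% of all genes) and 3 within Cip2a-/- (4.53%), and DESeq2 called 0 members in all 3 of these contrasts.

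The loss of Cip2a gave no called member in any condition. Untreated glands had 0% of genes called, and 2-week, endpoint and averaged contrasts 0.00646% each. In the average over conditions the smallest p-values belonged to Adamts5 at 0.50 ± 0.24, the ADAMTS-like Adamtsl2, a regulator of TGF-beta availability, at 0.57 ± 0.35, and Adamts19 at 1.08 ± 0.70, all with an edgeR adjusted p of 1.00. The value of Adamts19 rested on Cip2a-/- endpoint library 1, without which it was 0.16, and it was 1.72 without WT endpoint library 2, while Adamtsl2 stood at 0.28 without Cip2a-/- 2-week library 3. DESeq2 also called 0 members in these 4 contrasts. At an unadjusted p under 0.05 there were 1, 0, 9 and 0 members in the untreated, 2-week, endpoint and averaged contrasts, beside 2.27%, 2.44%, 10.7% and 0.917% of all genes.

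At the endpoint, 35 of 44 members were higher in Cip2a-/- than in WT glands, with a median of 0.47 beside -0.02 over all genes. The smallest p-values were those of Adamtsl1 (1.45 ± 0.39), Adamts5 (1.23 ± 0.42) and Mmp3 (1.58 ± 0.60), each with an edgeR adjusted p of 0.458, and Adamtsl1 is named after its values were seen. Libraries did not overlap for Adamts5, Adamtsl2 and Adamtsl4, all higher in Cip2a-/-, while 2.26% of all genes were higher without overlap. WT endpoint library 1, which stood apart, was the lowest of the 18 for Adamts5, Adamtsl1, Adamtsl4, Mmp2, Mmp3 and all 4 inhibitors, while Adamtsl2 was lowest in WT endpoint library 3. Without Cip2a-/- endpoint library 3, Adamtsl1 stood at 0.94, and without WT endpoint library 3, Mmp3 stood at 2.51. Fibroblast markers were positive for 10 of 11 genes in the same contrast, with a median of 0.68 and 0 called, while all 8 skeletal muscle, 9 B cell, 8 T cell and 7 brown fat markers were negative, with medians of -6.96, -5.12, -3.996 and -2.82 and 0 called. WT endpoint library 1 had the highest endpoint level of each of these negative lists. In sorted order, WT sums were 19.4, 2182 and 37920 CPM (muscle), 5.46, 447 and 2187 (B cell), 16.2, 23.5 and 724 (T cell) and 32.35, 195 and 8482 (brown fat). In Cip2a-/- they ran from 16.9 to 297, 6.18 to 57.1, 14.1 to 21.5 and 76.35 to 215. The part of these cell types in the members' values was not tested.

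Without overlap in untreated glands, Adamts1, Adamts16, Adamtsl5, Mmp28, Timp3 and Timp4 were lower in Cip2a-/- and Adamts6 was higher, where 6.5% and 5.94% of all genes were. At 2 weeks Adamtsl5 and Timp1 were higher and Adamtsl1, Mmp15 and Mmp16 lower, where 6.76% and 6.41% of all genes were. Adamtsl5 thus lay on opposite sides at these times, at -0.46 ± 0.27 and 0.52 ± 0.27. The test of that difference, the interaction of genotype and the 2-week condition, gave 0.98 ± 0.38 with an edgeR adjusted p of 0.999. No member was called in either interaction, and 0% of genes were. Unadjusted p under 0.05 was found for 3 members in the 2-week interaction (2.9% of all genes) and for 9 in the endpoint interaction (10% of all genes), and DESeq2 called 0 members in both. At the endpoint the interaction was 1.44 ± 0.44 for Adamtsl4, 1.14 ± 0.39 for Adamts1 and 1.69 ± 0.59 for Adamts5, each with an adjusted p of 0.490. These genes of single contrasts were picked after their values were seen.

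Of the 23 Mmp genes, 10 lie in a cluster of 427.1 kb on chromosome 9 (7272514 to 7699585, GRCm38), in the order Mmp13, Mmp12, Mmp1b, Mmp3, Mmp1a, Mmp10, Mmp8, Mmp27, Mmp20 and Mmp7. Only Mmp3 was abundant, with a mean of 54.2 CPM over the 18 libraries. Mmp27 followed at 6.60 and Mmp12, the macrophage elastase, at 3.10 CPM, while Mmp8 and Mmp13 averaged 0.459 and 0.425 CPM. The other genes were below the filter. Elsewhere Adamts1 and Adamts5 lie 55.0 kb apart on chromosome 16, and of the pair only Adamts5 was called: Adamts1 was at -0.12 ± 0.20 between 2 weeks and the endpoint.

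The promoter stretches of 5 genes of the cluster are printed to set the same motifs beside very different levels. Capitals mark the AP-1 element TGAGTCA or its reverse complement TGACTCA and the TATA motif TATAAA or its reverse complement TTTATA, and all stretches are on the plus strand from 120 bases before the start. They are Mmp3 (chr9:7445702-7445841), Mmp13 (chr9:7272394-7272533), Mmp1a (chr9:7464021-7464160), Mmp10 (chr9:7502222-7502361) and Mmp8 (chr9:7558309-7558448).
Mmp3: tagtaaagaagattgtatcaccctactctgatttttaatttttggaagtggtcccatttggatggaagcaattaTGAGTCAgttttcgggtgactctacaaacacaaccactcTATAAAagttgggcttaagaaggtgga
Mmp13: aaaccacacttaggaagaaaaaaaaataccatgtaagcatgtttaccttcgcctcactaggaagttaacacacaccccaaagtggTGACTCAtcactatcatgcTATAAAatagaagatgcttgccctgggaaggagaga
Mmp1a: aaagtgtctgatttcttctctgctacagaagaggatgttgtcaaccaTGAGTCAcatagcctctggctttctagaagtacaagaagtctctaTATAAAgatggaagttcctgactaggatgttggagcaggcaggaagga
Mmp10: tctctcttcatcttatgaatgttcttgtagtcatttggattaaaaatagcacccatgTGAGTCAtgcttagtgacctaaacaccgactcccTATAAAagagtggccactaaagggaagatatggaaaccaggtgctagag
Mmp8: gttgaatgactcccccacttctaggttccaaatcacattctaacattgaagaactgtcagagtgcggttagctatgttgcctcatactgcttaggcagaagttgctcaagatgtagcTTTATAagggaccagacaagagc

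Mmp3 held an AP-1 element from 46 to 40 and a TATA motif from 7 to 2 bases before the start. Mmp13 held them from 35 to 29 and from 16 to 11 bases before it. Mmp10, with 6 reads in all, and Mmp1a, with 0, held the same letters, the AP-1 element starting 63 and 73 bases before the start. Mmp8 held a TATA match in the reverse orientation across the start and no AP-1 element. In the 300-base windows the AP-1 element was found in 7 of 36 members (19.4%), all in this cluster, namely Mmp1a, Mmp1b, Mmp3, Mmp7, Mmp10, Mmp12 and Mmp13, and in 5.95% of all genes. TATA matches were in 12 members (33.3%) and 15.7% of all genes. No matches of different motifs overlapped.

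Other proteases of the matrix were read from 7 lists. Between 2 weeks and the endpoint, 6.94% of all genes were called lower and 6.41% higher, the background for the counts given here. Of the 10 tested genes of the related ADAM family, several of which encode membrane-bound proteases that shed cell surface proteins, 5 fell between 2 weeks and the endpoint: Adam12 (log2 fold change -0.95 ± 0.18), Adam23 (-1.08 ± 0.20), Adam9 (-0.75 ± 0.16) and Adam17 (-0.55 ± 0.14) were followed by Adam19, and their edgeR adjusted p ran from 0.00793 to 0.0461. Of 14 other matrix-degrading enzymes 3 fell, the fibroblast activation protein gene Fap (-1.43 ± 0.28), the neprilysin gene Mme (-0.91 ± 0.25) and the hyaluronidase gene Hyal1 (-0.70 ± 0.20). The procollagen C-proteinase enhancer Pcolce (-1.01 ± 0.29) fell, 1 of 4 in its list, and so did Tfpi2 (-0.98 ± 0.22), 1 of 8 other inhibitors.

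Among 13 tested substrates 4 fell, Col3a1 (-2.78 ± 0.57), Col1a1 (-1.92 ± 0.57), Nid1 (-1.41 ± 0.27) and Col4a1 (-1.30 ± 0.26), the genes of fibrillar and basement membrane proteins. Col1a1 and Col3a1 are also in the fibroblast list. None of the 5 tested plasminogen activation genes or of the list of 8 holding lysosomal cathepsin genes and Cst3, the gene of the cathepsin inhibitor cystatin C, passed the test. No gene of the 7 lists was called in the averaged genotype, 2-week against untreated or endpoint against untreated comparisons.

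The level of each tested member was related to the score of 17 cell type marker lists over the 18 libraries, the score being the mean centred log2 CPM of a list. Of 748 pairs, 60 had an adjusted p under 0.05 for Pearson's r by permutation (51 positive, 9 negative). The permutation shuffled all 18 libraries without regard to group. Its p-values therefore do not separate a relation within groups from a shift that member and score share between conditions. Of the 60 pairs, 50 kept their sign without the 2 libraries farthest from the median score and within each condition. By the largest r of such pairs, 29 members had a list, and for 20 of the 29 Spearman's rho also had an adjusted p under 0.05. For Adamts2, Adamts4, Adamts7, Adamts19, Adamtsl1, Adamtsl5, Mmp3, Mmp14 and Mmp23 the adjusted permutation p of rho ran from 0.0613 to 0.576. The called members Adamts9 and Adamts12 had none. The fibroblast list had most, 13 pairs, all positive.

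Adamts16 had r = 0.89 with the fibroblast score (permutation p = 1e-05, the smallest that 100000 resamples can give, adjusted 0.000935) and rho = 0.88 (p = 1e-05, adjusted 0.00374). Without WT endpoint libraries 1 and 2, the farthest, r was 0.83, and within untreated, 2-week and endpoint glands it was 0.76, 0.91 and 0.71. For Adamts5 r was 0.86 (permutation p = 2e-05, adjusted 0.0015) and rho 0.87 (p = 2e-05, adjusted 0.00374), with r = 0.73 without those libraries and 0.67, 0.78 and 0.64 within conditions. Mmp3 had r = 0.88 (permutation p = 1e-04, adjusted 0.00374), but rho was 0.59 (p = 0.0114, adjusted 0.138) and r within 2-week glands was 0.01. Mmp27, Adamts14, Adamts19, Adamtsl1, Adamtsl4, Adamtsl5, Mmp2 and Timp2 also had the fibroblast list as their strongest, with r from 0.69 to 0.89 and adjusted permutation p from 0.0015 to 0.034.

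Members with other lists stood beside them. Mmp8 followed the neutrophil score with r = 0.93 (permutation p = 1e-05, adjusted 0.000935) and rho = 0.78 (p = 0.00031, adjusted 0.011), and r was 0.87 without the 2 farthest libraries and 0.26 within 2-week glands. Mmp9, a gelatinase of leukocytes, followed the macrophage score with r = 0.85 (permutation p = 1e-05, adjusted 0.000935), rho = 0.84 (p = 7e-05, adjusted 0.00436), 0.78 without the 2 farthest libraries and 0.91, 0.51 and 1.00 within conditions. Mmp28 followed white adipocytes with r = 0.92 (permutation p = 1e-05, adjusted 0.000935) and rho = 0.81 (p = 6e-05, adjusted 0.00408), 0.66 without the 2 farthest libraries and 0.63, 0.47 and 0.96 within conditions.

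Timp3 followed the endothelial score with r = 0.85 (permutation p = 5e-05, adjusted 0.00249) and rho = 0.73 (p = 0.00084, adjusted 0.0224), with r = 0.75 without the 2 farthest libraries and 0.75, 0.91 and 0.91 within conditions. Timp1 and Mmp15 followed the basal epithelial score, Adamts15 the luminal epithelial and Mmp11 and Mmp17 the endothelial score, with r from 0.80 to 0.86 and adjusted permutation p from 0.000935 to 0.00436. Adamts13 followed T cells, with r = 0.85 (permutation p = 1e-05, adjusted 0.000935) and rho = 0.74 (p = 0.00063, adjusted 0.0194). Without Cip2a-/- untreated library 3 and WT endpoint library 1, r was 0.65. These libraries held 33 and 49 of the 166 reads of Adamts13, and each other library held 0 to 14. For Adamts2 and white adipocytes r was 0.77 (permutation p = 0.00196, adjusted 0.0319) and rho 0.31 (p = 0.211, adjusted 0.576), and r was 0.04 without the 2 farthest libraries, so that relation rested on them. The other named pairs were positive for Adamts3 and Adamts18 with basal epithelial, Mmp23 with macrophage and Mmp25 with lymph node stroma markers. They were negative for Adamts4 with T cell (r = -0.66), Adamts7 with skeletal muscle (r = -0.70) and Mmp14 with brown fat markers (r = -0.78), with adjusted permutation p of 0.0472, 0.0214 and 0.00725. In 6 of the 29 relations r was under 0.3 in size within at least 1 condition, each time the 2-week glands. There it was 0.01 for Mmp3, 0.02 for Mmp15, 0.12 for Adamts15, 0.20 for Adamtsl5, 0.26 for Mmp8 and -0.29 for Mmp14.

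**Figure D5:**
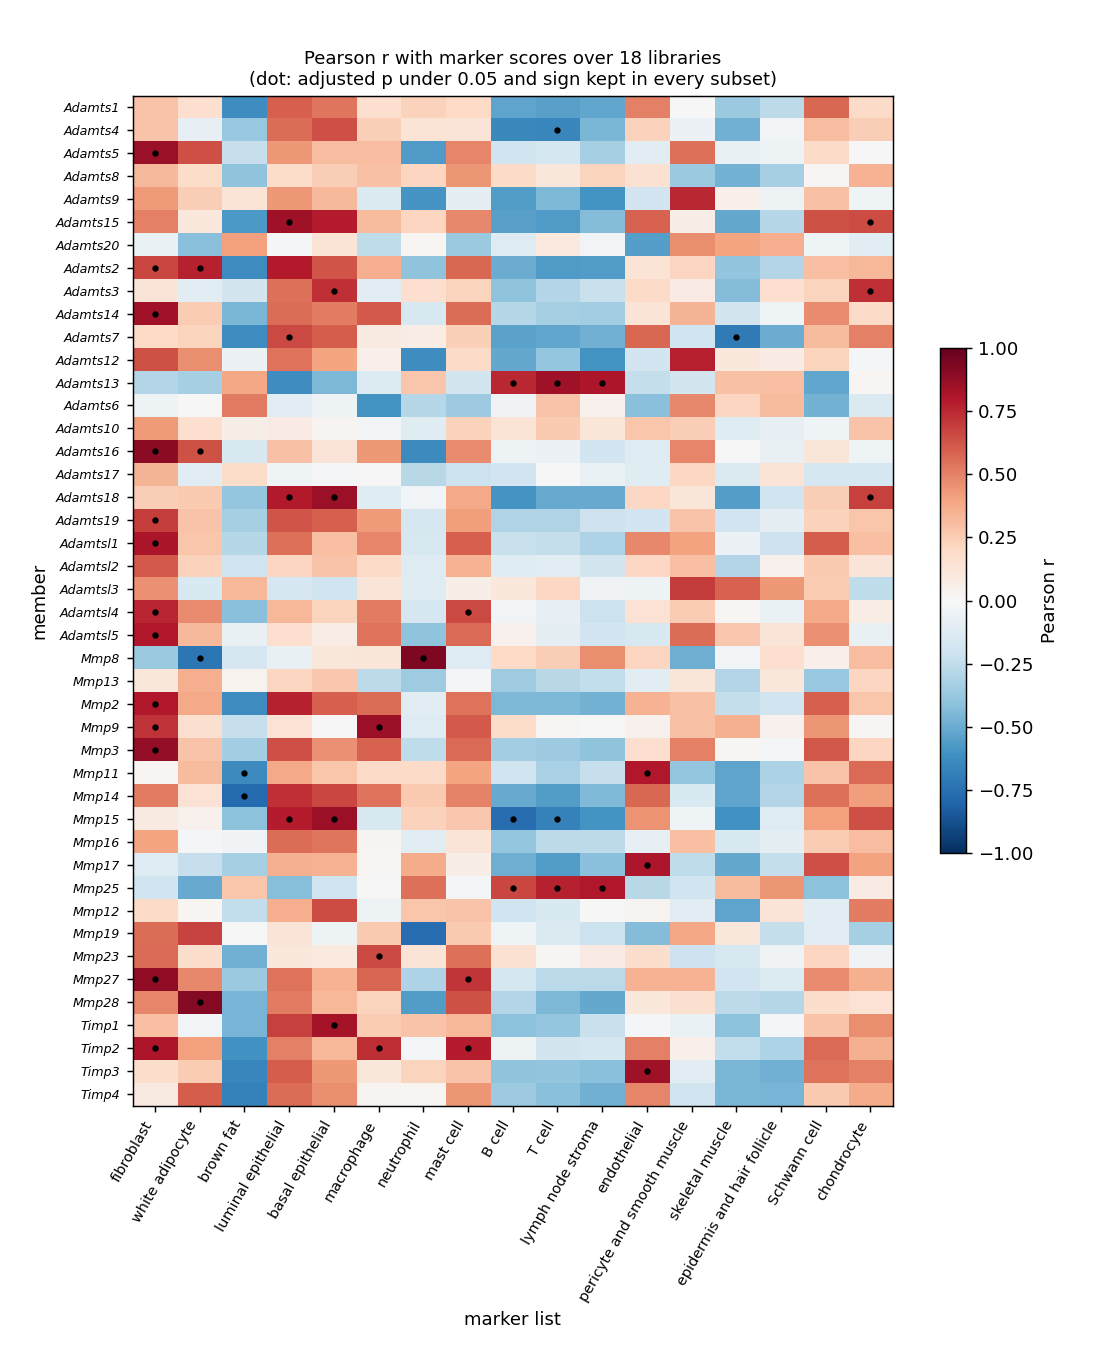
Pearson r over 18 libraries between each tested member (rows) and each marker list score (columns), with a dot where the adjusted p was under 0.05 and the sign was kept in every subset. The fibroblast column holds 13 dots, all positive, while the Mmp8 dot lies in the neutrophil column and the Timp3 dot in the endothelial one.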

How the data were processed

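The authors deposited 1 table of unnormalised read counts with a symbol and an Entrez identifier for each gene and a column for each library, per the file headers. Libraries were polyA RNA prepared with a stranded kit, per the labels' protocols, and bcl2fastq 2.17, STAR 2.5.2b, Subread 1.5.1 and the build mm10 are named in the submitters' processing notes. No source used here names the annotation, the strand setting or the treatment of multi-mapping reads. Counts of genes that share sequence and of overlapping antisense genes are therefore uncertain. How far this touches the related Mmp1a and Mmp1b was not tested.

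For the tests here edgeR 4.0.16 (R 4.3.3) was used. Low genes were removed by filterByExpr with a minimum count of 10 and a minimum total of 15. After TMM scaling, a model with 6 group terms was fitted over all 18 libraries, and 13 contrasts were tested by quasi-likelihood F-test with Benjamini-Hochberg adjustment over all 15482 genes. CPM uses TMM-scaled totals, log2 CPM a prior count of 2. Exon length is the union of exons in GENCODE vM21, and coordinates are RefSeq GRCm38.p6. SE is the size of the log2 fold change over the square root of F. The fit was checked on simulated counts. Correlations used 100000 resamples in scipy 1.17.1, adjusted over 748 pairs.

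The members, lists and tests were chosen with earlier results of these data known. Named are all called members, the 3 with the smallest p in each averaged comparison, the highest member of each functional group, the Timp genes, members below the filter, the list genes called (at most 4 a list) and the members with a marker list that kept its sign. Alternatives were DESeq2 1.42.0, limma voom (limma 3.58.1), relative log expression scaling, no filter, a replicate block, the groups compared only and leaving out each library. A length trend and fits within genotype were added after the data were seen.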

Additional observations from a re-analysis of the deposited data

How the results depend on the processing

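No result reversed. Among the values of single members recomputed under other settings, 640 kept their side of the threshold, 29 lost and 9 gained a call. Most of the 640 were uncalled values that stayed uncalled, while all 29 losses fell on called values. Against 2 weeks, the endpoint call was lost in 11 of 21 settings for Mmp8 and in 3 for Adamts9. It was lost in 2 for Adamts12, 2 for Adamts16 and 1 for Adamts5. Against untreated glands, the call of Adamts5 was lost in 10 of 19 settings. With DESeq2 the members called were 4 at the endpoint against untreated glands in WT, 1 in Cip2a-/-, 4 on average, and 9 at the endpoint against 2 weeks, where the main fit gave 0, 0, 1 and 5. The fit on the groups compared only and the fit with the length trend removed each gave 0 for the endpoint against untreated glands on average. The endpoint against 2 weeks gave 1 within WT and 0 within Cip2a-/-, each a contrast of 6 libraries. Leaving out 1 library gave 0 to 2 called members for the endpoint against untreated glands and 4 to 8 against 2 weeks, the 8 without WT endpoint library 3, and 0 in each other comparison. The causes were not tested. A replicate block gave 2 called members for the endpoint against untreated glands in WT and 8 for the endpoint against 2 weeks, beside 20 and 2083 of all genes, and changed no other count of members. Deviations from the group mean were correlated between libraries of different groups. The median r was 6e-04 over 45 pairs with the same number and -0.02 over 90 pairs with different numbers. The r ran from -0.47 to 0.66 and from -0.72 to 0.66. With that spread, the medians cannot show whether libraries of the same number shared more than a number. Over all genes tested the endpoint against 2 weeks gave 2067 called genes, 3245 with DESeq2, 605 with the groups compared only and 978 to 2610 with 1 library left out. The endpoint against untreated glands gave 39, 828 with DESeq2, 4 with the groups compared only and 2 to 279 with 1 library left out. A prior count of 0.5 gave 59 correlated pairs in place of 60. Of the tested members Mmp16, Mmp13, Mmp8 and Adamts13 had the fewest reads, 129 to 166 in all 18 libraries, and the 7 below the filter had fewer.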
